A study of Homo sapiens with 19 samples.

Results

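The genes described here are 48 protein-coding genes of human chromosome 18, chosen by name and by position so that they run along the chromosome from the p arm to the end of the q arm. Of these, 15 lie on the p arm (YES1 to CEP192), 13 on the proximal q arm (ROCK1 to PIK3C3) and 20 on the distal q arm (PIAS2 to TXNL4A). In the platform annotation 45 of the 48 had probe sets assigned to that gene alone, 98 probe sets in all, and all 45 were tested among 9546 genes. RBBP8, a DNA end resection factor, the ubiquitin ligase RNF125 and the Elongator subunit ELP2, all of the proximal q arm, had no probe set of their own and are not analysed here.

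Messenger RNA was measured on 19 arrays, 1 per line, in MDA-MB-231, a human triple-negative breast cancer cell line, and lines derived from it. The 2 hyper-ploid sublines came from lines 1833 and 4175, as did the 2 modal-ploid sublines. The 4 strongly bone-metastatic lines were 1833, 2274, 2268 and 2269, set against the 3 weakly bone-metastatic lines 2293, 2295 and 2296. The 4 strongly lung-metastatic lines were 4142, 4173, 4175 and 4180, set against the 3 weakly lung-metastatic lines SCP21, SCP6 and SCP26. The parental line had 1 array. Values are listed in these orders throughout, and the hyper-ploid and modal-ploid sublines with 1833 first. Line 2296 carries that number in its title, whereas its cell line label and the design text give 2297, and its group is the same under both. All lines were kept in serum-containing medium with selective drugs, and RNA came from subconfluent cultures. The spread within a group is a spread between lines, and no line had a repeat array. The tests treat the lines of a group as independent, and how closely those lines are related to each other was not tested.

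Tumour lines such as MDA-MB-231 are aneuploid, and sublines isolated from them can carry different numbers of a chromosome or of a part of it. Messenger RNA levels of many genes follow the number of gene copies to some degree, so the median over neighbouring genes along a chromosome can serve as an indirect trace of dosage, while single genes depart from it through their own regulation. The long arm of chromosome 18 carries SMAD2 and SMAD4, signal transducers of TGF-beta, and is often lost in carcinomas. DNA copy number was not measured in these data, so the values below are RNA levels only.

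The deposited values were linear ratios made separately for 2 sets of arrays. The first set held 10 arrays, from the 7 bone lines, both 1833 sublines and the parental cells, and the second held 9, from the 7 lung lines and both 4175 sublines. Ratios were compared within a set only. Array signals could be worked back from the ratios for 22090 of 22283 probe sets, and are given here as signals scaled to a common array median of 128. Differences are on the log2(signal + 16) scale, which understates the change of dim genes. The 40th percentile of scaled signal, used as the limit for a dim probe set, was 64.5 to 84.3 over the arrays. Before scaling, the trimmed mean signal was 451 to 454 on the parental and bone arrays, 453 to 457 on the lung arrays and 295 to 330 on the 4 ploidy arrays. Spike-in controls averaged 8.86 to 9.09 (log2) on the ploidy arrays, 9.54 to 10.3 on the lung arrays and 10.7 to 11.1 on the parental and bone arrays, so handling and target organ cannot be told apart. Of the markers of the parental line, CD44 (3742 to 7829) and AXL (4287 to 10663) lay above the 40th percentile on 19 of 19 arrays, whereas the progesterone receptor gene PGR did on 0 and the epithelial cadherin gene CDH1 on 1. The receptor and epithelial genes ERBB2 and EPCAM lay above it on 19 arrays and ESR1 on 16. The leukocyte gene PTPRC lay above it on 0 arrays, the endothelial VWF on 0 and CDH5 on 1, and the stromal PDGFRB on 1. Other genes listed for those cell types were above it on more arrays, with CD3E on 13, CD14 on 14, LAPTM5 and COL1A1 on 19, PECAM1 on 17 and COL3A1 on 7, and their part in the results was not tested. VIM had no value.

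Promoter sequence is shown for 3 of the genes that the results turn on: MALT1, which had the largest difference between strong and weak bone lines, TXNL1, which moved in opposite directions in the bone and lung comparisons, and RAB31, which ran against its neighbours. The windows are the 250 bases before the annotated start in RefSeq (GRCh38.p14), read in the direction of transcription, and capitals mark the GC box GGGCGG or its reverse complement CCGCCC. They lie at chr18:58671215-58671464, plus strand (MALT1), chr18:56638593-56638842, minus strand (TXNL1) and chr18:9708051-9708300, plus strand (RAB31).
MALT1: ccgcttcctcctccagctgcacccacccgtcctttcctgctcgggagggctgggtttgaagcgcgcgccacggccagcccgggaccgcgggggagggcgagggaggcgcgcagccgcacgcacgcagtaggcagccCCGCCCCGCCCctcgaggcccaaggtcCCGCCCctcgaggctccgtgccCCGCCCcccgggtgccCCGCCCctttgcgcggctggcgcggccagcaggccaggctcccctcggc
TXNL1: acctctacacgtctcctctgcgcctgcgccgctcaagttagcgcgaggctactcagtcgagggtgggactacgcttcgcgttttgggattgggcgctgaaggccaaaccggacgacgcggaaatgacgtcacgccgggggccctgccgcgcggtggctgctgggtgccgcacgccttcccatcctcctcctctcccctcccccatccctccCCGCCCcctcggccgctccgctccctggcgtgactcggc
RAB31: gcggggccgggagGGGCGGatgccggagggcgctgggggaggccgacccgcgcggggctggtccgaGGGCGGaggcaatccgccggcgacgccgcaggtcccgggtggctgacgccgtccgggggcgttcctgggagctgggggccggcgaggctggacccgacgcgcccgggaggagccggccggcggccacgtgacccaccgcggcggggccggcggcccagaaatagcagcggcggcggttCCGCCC
The MALT1 window holds 5 such matches, the TXNL1 window 1 and the RAB31 window 3, and their GC content is 78.8%, 69.6% and 82%. Overlapping matches were counted separately. A match to either strand was found in 42.6% of all 35116 windows of this length in the table and in 59.2% of the 76 windows of the 44 member genes that could be matched. These matches describe the letters of the window and say nothing about binding.

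In the weakly bone-metastatic lines the median messenger RNA level of the members was low in every stretch of the chromosome, most strongly on the distal q arm. The chromosome 18 trace, the median log2 ratio of the 45 members relative to the median of all genes on the same array, was 0.15, 0.22, 0.12 and 0.074 in the strong bone lines. It was -0.55, -0.72 and -0.55 in the weak bone lines. The groups did not overlap, and 42, 43 and 38 of the 45 members lay below 0 in the 3 weak lines. On the p arm the trace was 0.0045, 0.14, 0.069 and 0.12 in strong lines, against -0.24, -0.33 and -0.40 in weak lines. On the proximal q arm it was 0.12, 0.25, 0.12 and 0.061 in strong lines, against -0.57, -0.64 and -0.49 in weak lines. On the distal q arm it was 0.18, 0.24, 0.29 and 0.087 in strong lines, against -0.96, -1.0 and -0.88 in weak lines. The gap between the groups was 0.41 on the p arm, 0.70 on the proximal q arm and 1.15 on the distal q arm. This order of the stretches belonged to the members. In the 3 weak lines the other chromosome 18 genes stood at -0.41, -0.34 and -0.32 on the p arm. They stood at -0.13, -0.30 and -0.20 on the proximal q arm and at -0.23, -0.48 and -0.30 on the distal q arm. With all probe sets of the members in place of 1 per gene the p arm gap was 0.22.

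The lung lines showed the opposite order. The trace was -0.070, -0.28, -0.17 and 0.026 in the strong lung lines, against 0.39, 0.53 and 0.26 in the weak lung lines, again without overlap. In the weak lung lines 41, 35 and 34 of the 45 members lay above 0. On the p arm the trace was -0.011, -0.20, -0.056 and 0.026 in strong lines, against 0.33, 0.24 and 0.15 in weak lines. On the proximal q arm it was -0.086, -0.28, -0.16 and -0.24 in strong lines, against 0.36, 0.66 and 0.24 in weak lines. On the distal q arm it was -0.083, -0.33, -0.28 and 0.045 in strong lines, against 0.51, 0.61 and 0.47 in weak lines. Within each of these stretches the strong and weak lung lines did not overlap. With all probe sets the proximal q gap was -0.39 in place of -0.61. Among strong lung lines, 4180 stood highest on the p arm and the distal q arm, where its values were slightly above 0. The 1833 ploidy pair gave 0.086 in the hyper-ploid subline, against 0.17 for modal ploidy. The 4175 pair gave -0.035 in the hyper-ploid subline, against -0.11 for modal ploidy. The parental array stood at -0.030.

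**Figure D1:**
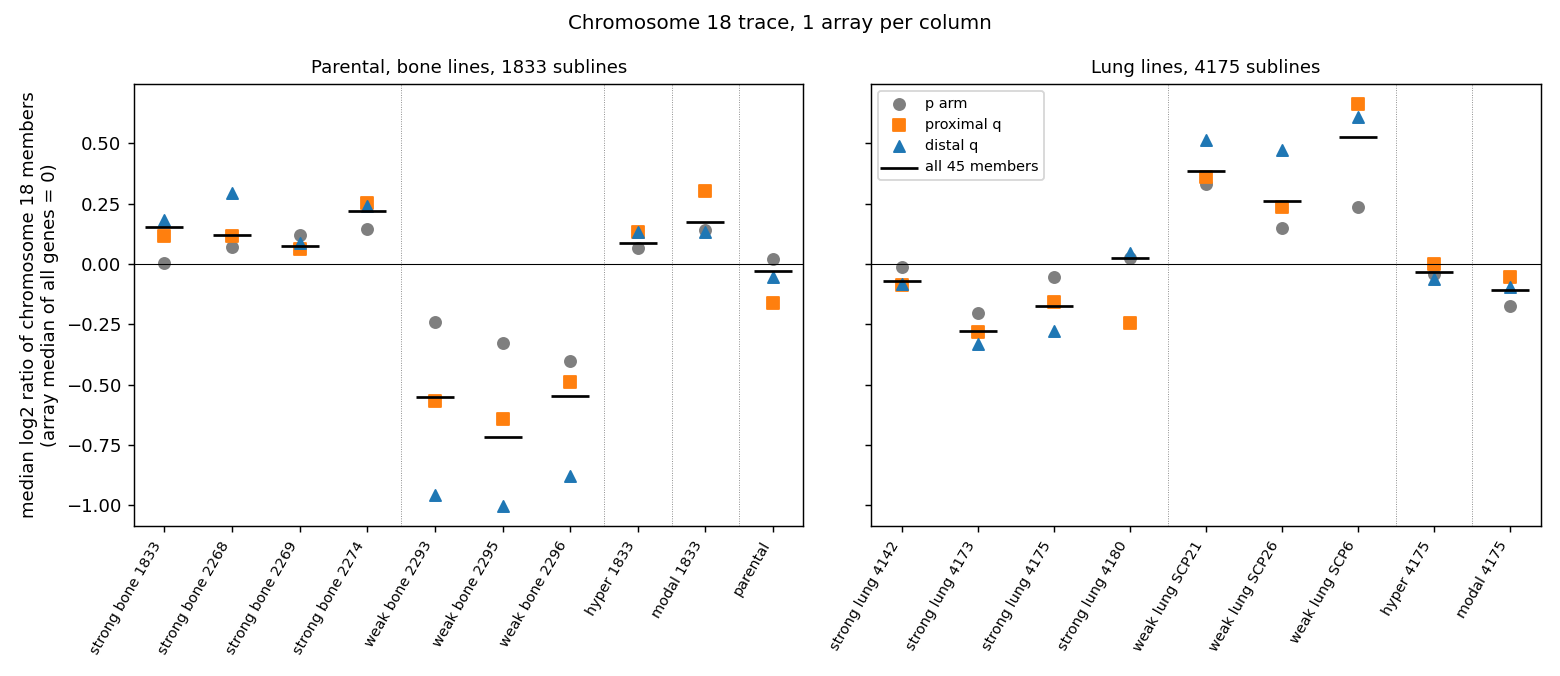
Each column is 1 array and the vertical axis is the median log2 ratio of the chromosome 18 members after each array's median over all genes was set to 0, with dots for the p arm, squares for the proximal q arm, triangles for the distal q arm and a bar for all 45 members. The 3 weak bone arrays reach -0.88 to -1.0 on the distal q arm and the 3 weak lung arrays 0.47 to 0.61, and the panels are separate array sets whose 0 levels are not shared.

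The zero of each set is set by the authors' divisors, so a trace above or below 0 does not by itself say which group departed from the parental line. Set against the single parental array on the recovered signals, a measure added after the data had been seen, the median member stood at 0.16, 0.27, 0.20 and 0.12 in the strong bone lines and at -0.50, -0.68 and -0.50 in the weak bone lines. It stood at -0.33, -0.40, -0.40 and -0.13 in the strong lung lines and at 0.14, 0.28 and 0.098 in the weak lung lines. By this median the weak bone lines and the strong lung lines lay below the parental array, and the strong bone and weak lung lines lay above it. The position above it did not hold for every stretch: on the p arm the members stood at -0.022, 0.14, -0.070 and 0.023 in the strong bone lines and at 0.24, -0.011 and -0.050 in the weak lung lines. The other chromosome 18 genes stood at 0.052, -0.037, -0.085 and 0.029 in the strong bone lines and at 0.057, -0.026 and 0.043 in the weak lung lines. The hyper-ploid sublines stood at 0.18 (1833) and -0.26 (4175), and the modal-ploid sublines at 0.27 (1833) and -0.37 (4175), so that both 4175 sublines lay on the side of the strong lung lines. The lung and 4175 arrays belong to the other set. They and both 1833 sublines had lower spike-in levels than the parental array, the sublines the lowest, and the part of this in their values was not tested.

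Over all tested genes of each chromosome, chromosome 18 had the largest median difference of the 23 chromosomes compared in both organ comparisons. Its 141 tested genes had a median log2 difference of 0.54 between strong and weak bone lines, and 31.9% of them passed as higher. Next came chromosome 21 with 0.27 and 20.2%, chromosome 7 with -0.25 and chromosome 2 with 0.20. Between strong and weak lung lines chromosome 18 stood at -0.34, with 22% of its genes lower, followed by chromosome 7 at -0.24, chromosome 12 at 0.24 and chromosome 2 at -0.22. Chromosome 21 stood at -0.17 there, with 17.4% of its genes lower. Opposite signs in bone and lung were thus not particular to chromosome 18, since chromosomes 2, 12 and 21 had them too. On single arrays the median of all chromosome 18 genes was -0.37, -0.46 and -0.40 in the weak bone lines, where the lowest other chromosome, 21 in each, was at -0.16, -0.15 and -0.17. In the weak lung lines it was 0.32, 0.29 and 0.15, where the highest other chromosome was at 0.14, 0.20 and 0.10 and the lowest at -0.30, -0.15 and -0.17. In SCP26 the lowest, chromosome 12, was farther from 0 than chromosome 18. In the strong bone lines it was 0.126, 0.123, 0.097 and 0.074, where chromosome 21 was at 0.135, 0.109, 0.104 and 0.095. In the strong lung lines it was -0.050, -0.15, -0.10 and 0.026, where the lowest other chromosome was at -0.34, -0.11, -0.17 and -0.11. Among strong lines chromosome 18 was thus highest of all only in 2274 and lowest of all only in 4173. These medians are descriptions with no test.

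**Figure D2:**
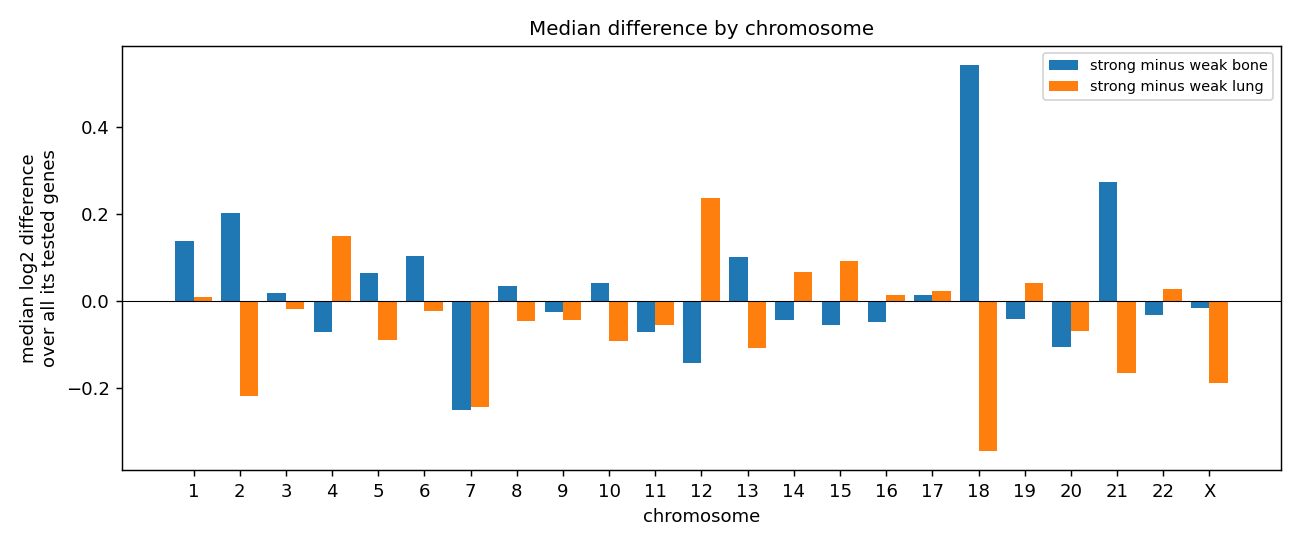
Bars give, for each chromosome on the horizontal axis, the median log2 difference over its tested genes between strong and weak bone lines and between strong and weak lung lines. Chromosome 18 holds the longest bar of each kind, at 0.54 for bone and -0.34 for lung.

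Between strong and weak bone lines, 24 of the 45 members were higher and 1, RAB31, was lower (limma, adjusted p under 0.05), where 11.2% of all 9546 genes passed, 6.6% higher and 4.59% lower. The median member difference was 0.74, against a median of 0.0097 over all genes. Strong and weak lines did not overlap for 32 members that were higher in the strong lines, where 14.4% of all genes were, and for 1 member that was lower, where 13.0% were. In the bulk RNA of these cultures, fewer cells with a high level and less RNA per cell cannot be told apart. The count of higher members ranged from 16 to 30 when single lines were left out. The members were picked for being on the chromosome whose level earlier results of these data had singled out, so the counts are descriptions.

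On the p arm 3 of 15 members were higher, and the median difference was 0.46. NAPG encodes gamma-SNAP, a factor of vesicle fusion. Its signals were 483, 609.8, 567 and 402 in strong bone lines and 249, 249.8 and 259.5 in weak bone lines, without overlap, a difference of 0.97 (SE 0.16, adjusted p = 0.00194). SEH1L, a nuclear pore and GATOR2 protein, had signals of 1966, 1935, 1846 and 1614 in strong lines, against 878, 1019.7 and 915 in weak lines. All strong lines exceeded all weak lines, by 0.96 (SE 0.18, adjusted p = 0.00468). VAPA, a protein of endoplasmic reticulum contact sites, was higher by 0.65 (SE 0.17, adjusted p = 0.0286), and lost this call when any single bone line other than 2269 was left out, with adjusted p up to 0.107. The Src family kinase gene YES1 did not pass at 0.40 (SE 0.16, adjusted p = 0.123), although its lowest strong line, at 847, lay above its highest weak line, at 728. The myosin regulatory light chain genes MYL12A at 0.31 (SE 0.20, adjusted p = 0.374) and MYL12B at 0.46 (SE 0.19, adjusted p = 0.135) did not pass either.

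RAB31, which encodes a Rab GTPase of endosomal and Golgi traffic, ran against its neighbours. Its signals were 1207, 1502, 1259.9 and 1058 in strong bone lines and 3117, 2523 and 2365 in weak bone lines. Every weak line exceeded every strong line, and the difference was -1.08 (SE 0.19, adjusted p = 0.00307). Its 3 kept probe sets were all lower, from -1.08 to -1.23. The parental array gave 1639, between the groups. AFG3L2, a subunit of the mitochondrial m-AAA protease, had signals of 546, 678, 481 and 688 in strong lines, against 607, 578 and 582 in weak lines. These overlapped fully, with a difference of 0.0071 (SE 0.19). The phosphatidate phosphatase gene LPIN2 stood at 0.12 (SE 0.22). EPB41L3, encoding the membrane skeleton protein 4.1B, stood at -0.56 (SE 0.23), and the laminin chain gene LAMA1 at 0.32 (SE 0.49), both at or below the 40th percentile on all 7 bone arrays. The remaining p arm members did not pass and stood at 0.54 for the centrosome protein CEP192, 0.49 for the proteasome assembly chaperone PSMG2, 0.64 for the complex I subunit NDUFV2 and 1.02 for the ankyrin repeat protein ANKRD12.

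On the proximal q arm 5 of 10 tested members were higher, with a median difference of 0.67. NPC1, the lysosomal cholesterol exporter, had signals of 2279.9, 3274, 2503 and 2656 in strong lines and 779, 952 and 1117 in weak lines. The groups were well apart, with a difference of 1.48 (SE 0.25, adjusted p = 0.00254). RIOK3, an atypical kinase of the RIO family, had 2319, 2417, 1965 and 1478 in strong lines, against 743, 820.4 and 1048 in weak lines, which did not overlap and differed by 1.21 (SE 0.22, adjusted p = 0.00333). MAPRE2, a microtubule end-binding protein, had 883, 714, 820.2 and 645 in strong lines and 407, 304 and 341 in weak lines. It was higher by 1.09 (SE 0.20, adjusted p = 0.00343), a call that was lost with the mean of its probe sets (adjusted p = 0.211). ROCK1, a kinase that promotes actomyosin contraction, had 1263, 1567, 1351 and 1377 in strong lines, against 939.5, 859 and 964 in weak lines. All strong lines exceeded all weak lines by a smaller margin, 0.58 (SE 0.15, adjusted p = 0.0273), and without any of 2274, 2268, 2293, 2295 or 2296 the call was lost (adjusted p up to 0.106). The chromatin remodelling subunit SS18 was higher by 0.63 (SE 0.18, adjusted p = 0.0346), and lost its call without any single line other than 2269 (adjusted p up to 0.112).

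The other 5 tested members of the proximal q arm stood above 0 without passing. GATA6, a transcription factor of endoderm and heart development, had 442, 299, 291 and 339.6 in strong lines and 212, 171 and 206 in weak lines. These did not overlap, and the difference was 0.74 (SE 0.27, adjusted p = 0.0938). The class III phosphatidylinositol 3-kinase PIK3C3 stood at 0.71, the zinc importer SLC39A6 at 0.60, the translational regulator IMPACT at 0.55 and the O-glycosylation enzyme GALNT1 at 0.37. IMPACT was dim on 3 of the 4 strong and on all 3 weak bone arrays.

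The distal q arm held 16 of the 24 higher members, 16 of its 20, with a median difference of 1.10. MALT1 encodes the paracaspase that signals from antigen receptors to NF-kB, and its signals were 512, 443, 634 and 378 in strong bone lines and 71.0, 123 and 88.7 in weak bone lines. The weak lines were all far below the parental array, at 330.0, and the difference was 2.21 (SE 0.22, adjusted p = 4.62e-05). Its other 2 kept probe sets gave 2.62 and 1.56. NEDD4L, a ubiquitin ligase that limits membrane proteins and SMAD signalling, had 1544, 1630.0, 1767 and 1012 in strong lines, against 303, 299.9 and 331 in weak lines. The 3 weak lines were nearly alike, and the difference was 2.17 (SE 0.22, adjusted p = 5.83e-05). MBP, named for myelin basic protein, had 832, 1045, 1217 and 658 in strong lines, against 295, 239 and 217 in weak lines, without overlap, and differed by 1.82 (SE 0.29, adjusted p = 0.00158). PMAIP1, which encodes the pro-apoptotic BH3 protein NOXA, had 5125, 5581, 4518 and 4394 in strong lines and 1331, 1211 and 2859.9 in weak lines. Line 2296 was highest of the weak lines, still below all strong lines, and the difference was 1.54 (SE 0.28, adjusted p = 0.00391).

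Both SMAD genes of the distal q arm were higher in strong bone lines. SMAD2, a receptor-regulated SMAD of the TGF-beta pathway, had 1104, 1324, 1165 and 919.8 in strong lines and 469.7, 466 and 459 in weak lines. The weak lines lay within a narrow range well below the strong lines, a difference of 1.24 (SE 0.20, adjusted p = 0.00158). SMAD4, the common partner of SMADs, had 278, 329.7, 347 and 243 in strong lines, against 123, 139 and 159.9 in weak lines, without overlap and with a difference of 1.0 (SE 0.18, adjusted p = 0.00314). TXNL1, a thioredoxin-like protein bound to the proteasome, had 4188, 4590.3, 4630.2 and 3940.0 in strong lines and 1942, 1879.5 and 1833 in weak lines. Every strong line lay far above every weak line, a difference of 1.19 (SE 0.15, adjusted p = 2.91e-04).

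SERPINB8, an intracellular protease inhibitor, had 753, 643, 581 and 473 in strong lines, against 229.7, 231 and 229 in weak lines, a difference of 1.34 (SE 0.18, adjusted p = 5.13e-04). Its weak lines were almost identical to each other. BCL2, the anti-apoptotic founder of its family, had 167, 130.2, 223 and 148 in strong lines and 109, 66.8 and 81.9 in weak lines. The groups were close but did not overlap, the difference was 0.84 (SE 0.25, adjusted p = 0.0413), and the call was lost without 1833, 2268, 2293, 2295 or 2296 (adjusted p up to 0.157). The other called members of this stretch were the asparaginyl-tRNA synthetase NARS1 at 1.17, cytochrome b5 (CYB5A) at 1.11, the mitochondrial malic enzyme ME2 at 1.10, the dipeptidase CNDP2 at 0.86, the spliceosome protein TXNL4A at 0.82 and the mitochondrial thiolase ACAA2 at 0.59. CNDP2 lost its call without 2274, 2295 or 2296 (adjusted p up to 0.0877), and TXNL4A and ACAA2 lost theirs without any single line other than 2269 (adjusted p up to 0.109 and 0.139). The bHLH factor gene TCF4 is counted among the 16 by its adjusted p, but it was dim on all 7 bone arrays, so no difference is given. Its other kept probe set stood at -0.32, and it was not called with the mean of probe sets, with no filter (adjusted p = 0.418) or without 1833, 2274, 2295 or 2296 (adjusted p up to 0.0898). Not called were the SUMO ligase PIAS2 at 0.80, the ESCRT ATPase VPS4B at 0.55, the sphingolipid enzyme KDSR at 0.49 and SERPINB5, which encodes maspin, at 0.52.

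**Figure D3:**
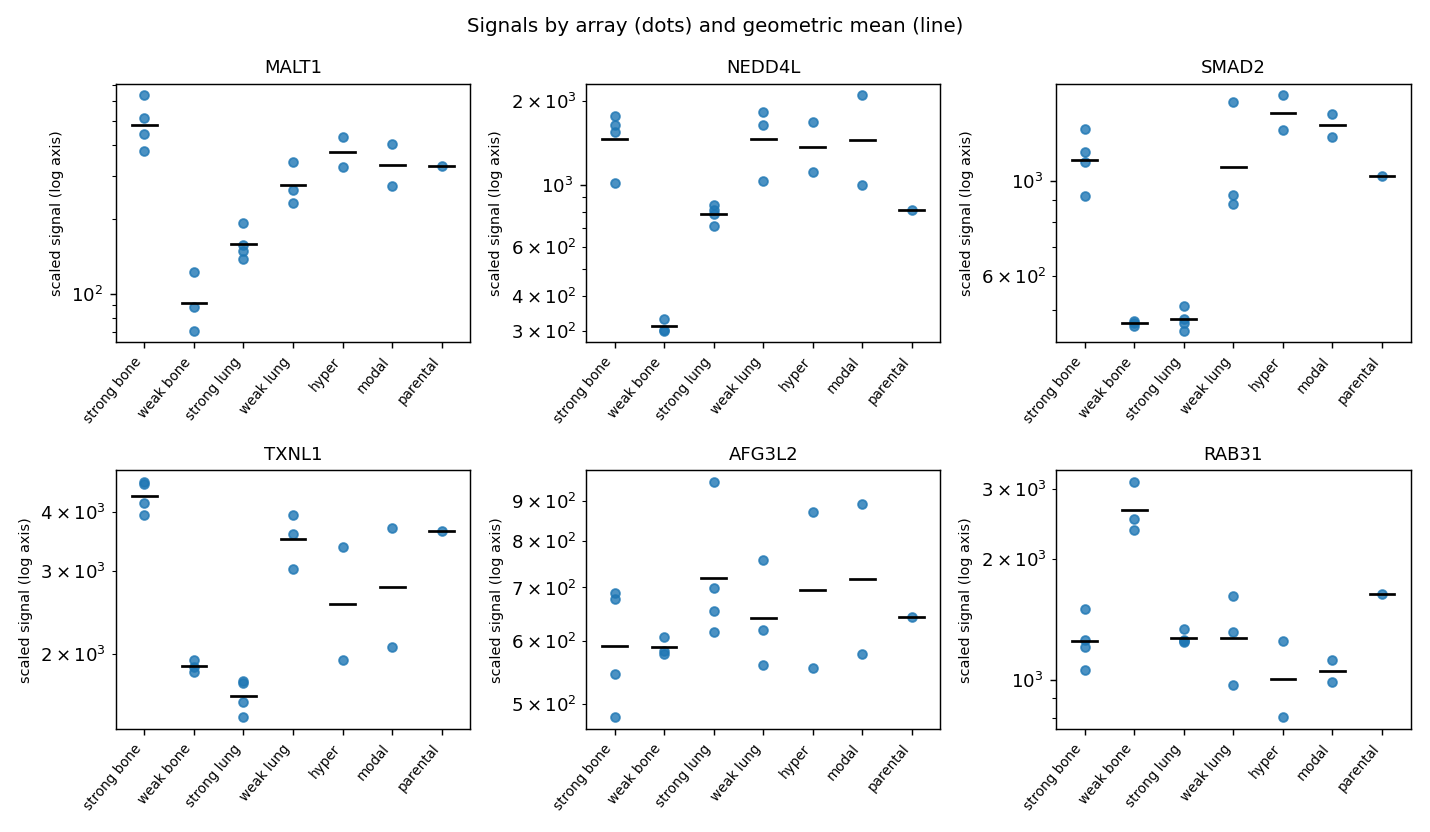
Dots are scaled signals of single arrays on log axes for 6 members, and lines are geometric means, by group from strong bone at the left to the parental array at the right. MALT1, NEDD4L, SMAD2 and TXNL1 are lower in weak than in strong bone lines, and lower in strong than in weak lung lines. AFG3L2 overlaps between strong and weak lines within each organ. RAB31 is higher in weak bone lines, at 2365 to 3117, than in strong bone lines. Bone and lung arrays belong to different array sets.

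Between strong and weak lung lines the order was turned round: 16 of the 45 members were lower in the strong lines and 1, SERPINB5, was higher, where 8.59% of all genes passed, 5.35% lower and 3.24% higher. SERPINB5 met the filter only with the strong lung lines, as given below. The median member difference was -0.64, against -0.016 over all genes. Strong and weak lines did not overlap for 26 members that were lower in the strong lines, where 11.4% of all genes were, and for 2 that were higher, where 8.17% were. The median difference was -0.31 on the p arm, with 2 of 15 lower, -0.67 on the proximal q arm, with 3 of 10 lower, and -0.76 on the distal q arm, with 11 of 20 lower. The count of 16 was 9 without 4173, without 4175 or without SCP6, and 9 with the 7 lung arrays fitted alone. The bone and lung contrasts shared no arrays but shared 1 estimate of the spread.

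On the p arm YES1 had signals of 802, 576, 714 and 719 in strong lung lines and 1116, 1418 and 1129.6 in weak lung lines. All strong lines lay below all weak lines, a difference of -0.79 (SE 0.16, adjusted p = 0.00760), and the call was lost with the 7 lung arrays fitted alone (adjusted p = 0.0611). NDUFV2, a subunit of respiratory complex I, was lower at -0.82 (SE 0.22, adjusted p = 0.0327), a call lost without any single lung line other than SCP26 (adjusted p up to 0.1). RAB31 did not follow its bone pattern, with 1335, 1240.2, 1257 and 1252 in strong lines, against 1318, 1617 and 972 in weak lines. Those values overlapped, and the difference was -0.0050 (SE 0.19). AFG3L2 again showed little difference, at 0.16 (SE 0.19). MYL12A stood at -0.31 and MYL12B at 0.11, with overlapping lines.

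On the proximal q arm PIK3C3, the lipid kinase of autophagy and endosomes, had 262, 259, 247 and 262 in strong lung lines and 665, 1112 and 746 in weak lung lines. The strong lines were nearly equal and far below the weak lines, a difference of -1.62 (SE 0.24, adjusted p = 9.67e-04). MAPRE2 was lower at -0.70 (SE 0.20, adjusted p = 0.0400) and GALNT1 at -0.90 (SE 0.24, adjusted p = 0.0285). MAPRE2 lost its call without 4142, 4173, 4175, SCP21 or SCP6 (adjusted p up to 0.144), and GALNT1 without 4173, 4175, 4180 or SCP6 (adjusted p up to 0.0884). ROCK1 at -0.39 (SE 0.15, adjusted p = 0.141) and GATA6 at -0.87 (SE 0.27, adjusted p = 0.0638) did not pass. Strong lines had ROCK1 signals of 1546, 1103, 1275 and 1356, all below the weak lines at 1799, 1730.0 and 1657.

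On the distal q arm MBP had the largest negative difference, with 334, 374, 306 and 379 in strong lung lines and 1325, 2648 and 1007 in weak lung lines. The groups were far apart, at -2.09 (SE 0.29, adjusted p = 6.25e-04), but with the mean of its probe sets the call was lost (adjusted p = 0.108). SMAD2 had 447, 467, 512 and 476 in strong lines, against 882, 1530.3 and 925 in weak lines, and differed by -1.16 (SE 0.20, adjusted p = 0.00246). The SMAD2 signals of the weak bone lines, 469.7, 466 and 459, fell in the same range. They belong to the other array set, with other spike-in levels, so a shared level cannot be read from this. SMAD4 had 216, 196, 205 and 202 in strong lines and 245, 338 and 360.3 in weak lines. All strong lines were below all weak lines, yet the difference of -0.56 (SE 0.18, adjusted p = 0.0667) did not pass.

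TXNL1 had 1584, 1469, 1734 and 1756 in strong lung lines, against 3594, 3951 and 3026 in weak lung lines. No values of the groups came near each other, and the difference was -1.09 (SE 0.15, adjusted p = 6.25e-04). ME2 had 548, 362, 438 and 476 in strong lines and 1154, 1374 and 851 in weak lines, which did not overlap and differed by -1.26 (SE 0.19, adjusted p = 9.67e-04). CYB5A, an electron carrier of lipid metabolism, was lower at -1.18 (SE 0.22, adjusted p = 0.00386) and CNDP2 at -1.14 (SE 0.21, adjusted p = 0.00407). PMAIP1 was lower at -1.07 (SE 0.28, adjusted p = 0.0308), with 1398, 1633, 1766 and 1837 in strong lines, against 2467, 3556 and 4819 in weak lines. KDSR, which makes sphingoid bases, stood at -0.89, NEDD4L at -0.87, NARS1 at -0.79 and ACAA2 at -0.72, all called. PMAIP1 lost its call without any single lung line other than SCP21 (adjusted p up to 0.0968). NARS1 lost it without SCP21 (adjusted p = 0.0521), KDSR without 4173, 4175 or any weak line (up to 0.0777), ACAA2 without 4173, 4175, SCP21 or SCP6 (up to 0.0819) and NEDD4L without 4173, 4175, 4180, SCP21 or SCP6 (up to 0.0932). MALT1 at -0.74 (SE 0.22, adjusted p = 0.0511) and BCL2 at -0.41 (SE 0.25, adjusted p = 0.351) did not pass.

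SERPINB5 was the member called as higher in strong lung lines. SERPINB5 had 66.9, 141, 99.1 and 42.4 in strong lung lines, against 12, 6.09 and 5.68 in weak lung lines, a difference of 2.02 (SE 0.41, adjusted p = 0.00760). All 3 weak lines and 2 of the strong lines were dim, and the fold was at least 1.04. It lay above the 40th percentile on 3 of 19 arrays, among them the strong lung lines 4173 and 4175. SERPINB5 thus met the filter of at least 2 arrays only with the group where it was high, and its call is a description. SERPINB8 had 246, 248, 282 and 249.6 in strong lines and 135, 208 and 150.4 in weak lines. All strong lines exceeded all weak lines, at 0.61 (SE 0.18, adjusted p = 0.0534), just outside the threshold, and it passed under 7 alternatives, with adjusted p from 0.00559 to 0.0497. SERPINB5 and SERPINB8 were the only members whose strong lung lines lay wholly above the weak ones. The other tested serpin genes of the distal q arm, SERPINB3 at 0.0055, SERPINB10 at 0.30 and SERPINB13 at 0.42, were not called.

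**Figure D4:**
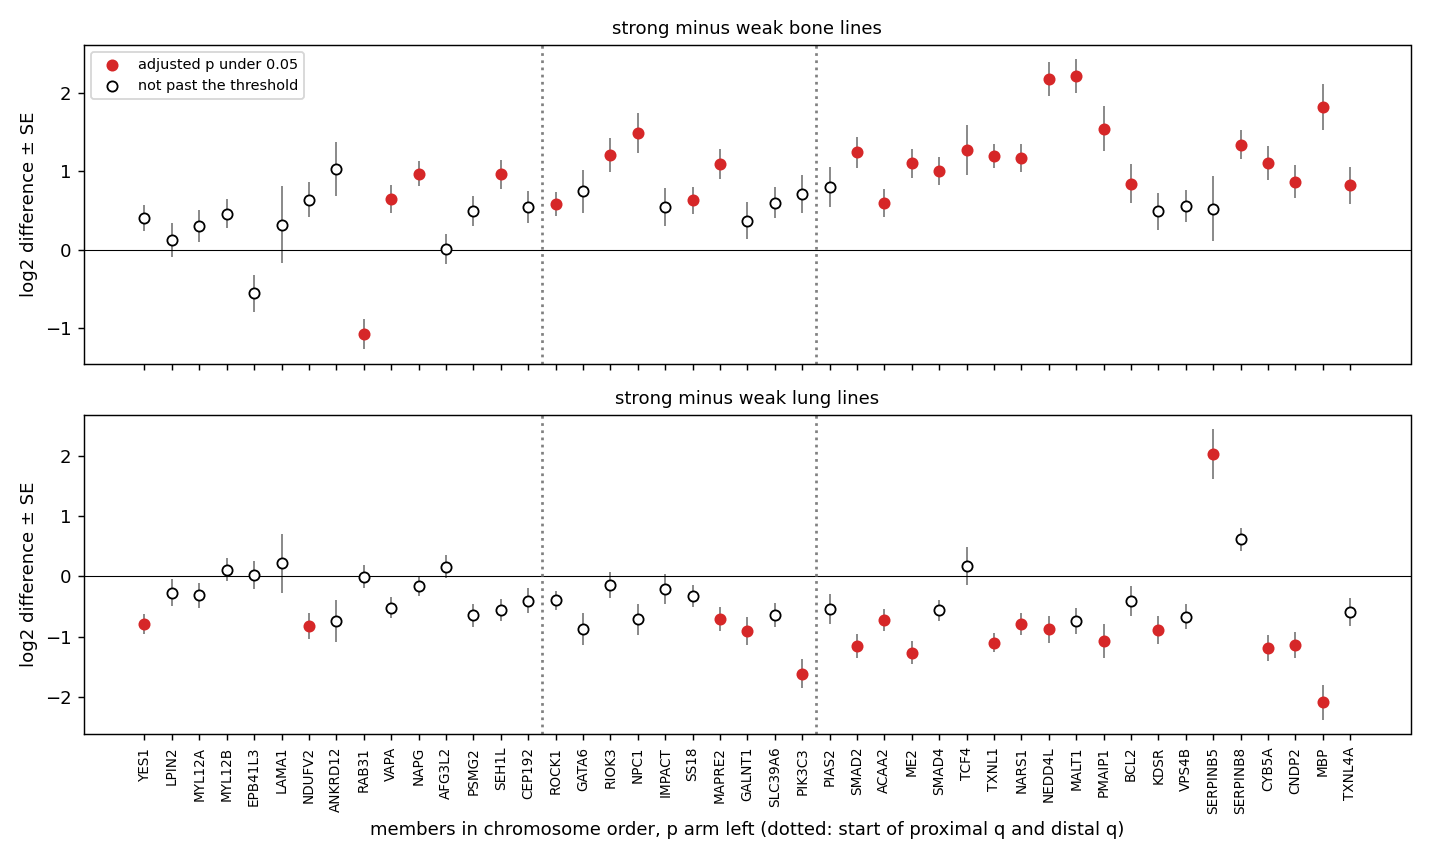
Points are log2 differences of the 45 members in chromosome order with their standard errors, strong minus weak bone lines above and strong minus weak lung lines below, filled where limma's adjusted p was under 0.05. In the bone panel 24 filled points lie above 0 and RAB31 lies below it, and in the lung panel 16 lie below 0 and SERPINB5 lies above it.

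The strong against weak difference itself differed between bone and lung for most members. The contrast of the 2 differences, bone minus lung, was positive past the threshold for 33 of 45 members and negative for 1, RAB31, where 11.5% of all genes passed, 6.79% positive and 4.68% negative. Its median over members was 1.31, against 0.035 over all genes. It was 0.94 on the p arm with 7 of 15 positive, 1.31 on the proximal q arm with 9 of 10 and 1.76 on the distal q arm with 17 of 20. The largest values belonged to MBP at 3.90 (SE 0.41, adjusted p = 6.72e-05), NEDD4L at 3.05 (SE 0.31, adjusted p = 6.41e-05), MALT1 at 2.95 (SE 0.31, adjusted p = 6.96e-05) and PMAIP1 at 2.61 (SE 0.40, adjusted p = 9.96e-04). The MBP value is that of 1 of its 3 kept probe sets. The others gave 1.06 and -0.030 for bone and 0.13 and -0.073 for lung. TXNL1 had the smallest adjusted p, at 2.29 (SE 0.21, adjusted p = 3.60e-05). SMAD2 stood at 2.40 (SE 0.28, adjusted p = 1.66e-04) and SMAD4 at 1.57 (SE 0.25, adjusted p = 0.00143). Among the members not called were AFG3L2 at -0.16, LAMA1 at 0.096, MYL12B at 0.34, EPB41L3 at -0.58 and SERPINB5 at -1.5. Of the 34 calls, 26 held in every alternative. RAB31 lost its call without 2293 (adjusted p = 0.0592) and with the mean of probe sets (0.0743), GALNT1 without 2274, 4173, 2295 or 2296 (up to 0.0657) and SS18 without 4173, 2295 or 2296 (up to 0.0634). PIAS2 lost it without 4173, 4180, 2295, 2296, SCP21 or SCP6 (up to 0.0710), BCL2 without 1833, 2268, 4173, 4175, 2295, 2296 or SCP21 (up to 0.0881) and ANKRD12 without any bone line except 2269 or without 4142, 4173 or 4180 (up to 0.0705). MAPRE2 and RIOK3 lost theirs with the mean of probe sets only (adjusted p = 0.165 and 0.147).

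Hyper-ploid and modal-ploid sublines did not differ in any member past the threshold. With limma and line of origin as a block, 0 of the 45 members passed, where 0.0105% of all genes did, and 0 members had an unadjusted p under 0.05, where 494 of 9546 genes had. The median member difference was -0.035, against -0.010 over all genes, and the extremes were -0.67 and 0.33. Scaling every array to the same median hides a doubling shared by all chromosomes. BCL2 had signals of 115 and 69.7 in hyper-ploid sublines and 167 and 119 in modal-ploid sublines. The pair differences were -0.48 in 1833 and -0.65 in 4175, and the mean difference of -0.57 (SE 0.26, adjusted p = 0.973) did not pass.

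For PMAIP1, ANKRD12 and EPB41L3 the mean difference rested on 1 pair. PMAIP1 had 2484 and 1105 in hyper-ploid and 2409 and 2041 in modal-ploid sublines, nearly equal in the 1833 pair and lower in the 4175 hyper-ploid subline. ANKRD12 differed by -1.39 in the 1833 pair and by 0.51 in the 4175 pair. EPB41L3 differed by -1.44 in the 1833 pair and by 0.10 in the 4175 pair. GATA6 stood at -0.33 on average, with -0.28 in the 1833 pair and -0.38 in the 4175 pair. On the higher side were TCF4 at 0.33, LAMA1 at 0.31, SS18 at 0.24, and PIK3C3 and PIAS2, both at 0.24. Of these, SS18 was above 0 in both pairs, at 0.38 in 1833 and 0.099 in 4175. The others also rested on 1 pair: in 1833 and 4175, TCF4 gave -0.083 and 0.74 and LAMA1 -0.024 and 0.64. PIK3C3 gave 0.47 and -0.0020, and PIAS2 gave -0.014 and 0.48. TCF4 was dim on both 4175 arrays, and LAMA1 on all ploidy arrays but the 4175 hyper-ploid one. SMAD2 stood at 0.097, SMAD4 at -0.022, ROCK1 at -0.24, YES1 at -0.14, MYL12A at 0.18 and MYL12B at -0.070. The standard errors lay between 0.26 and 0.39.

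Across the arrays of a set the members moved together. Each member's log2 ratio was correlated with the median of the other members over the 10 arrays of the first set, and the median Pearson's r was 0.826, with 30 of 45 members above 0.7. For the other 96 chromosome 18 genes the median r with the members was 0.387, and for the 9405 genes of other chromosomes it was -0.00996, with 33.3% and 11.2% above 0.7. Over the 9 arrays of the second set the medians were 0.707 for members, 0.267 for other chromosome 18 genes and -0.0318 for genes of other chromosomes. By stretch the member medians in the first set were 0.695 on the p arm, 0.851 on the proximal q arm and 0.907 on the distal q arm. In the second set they were 0.582, 0.716 and 0.807 in the same order. The points share the weak and strong groups, so these correlations restate the group differences and are given without a test. The genes most like the trace in the first set were NARS1 (0.974), SMAD2 (0.973) and NEDD4L (0.969). In the second set they were CEP192 (0.986), TXNL1 (0.954) and MBP (0.943). RAB31 ran opposite in the first set (-0.927), and SERPINB8 (-0.791) and SERPINB5 (-0.706) did in the second.

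**Figure D5:**
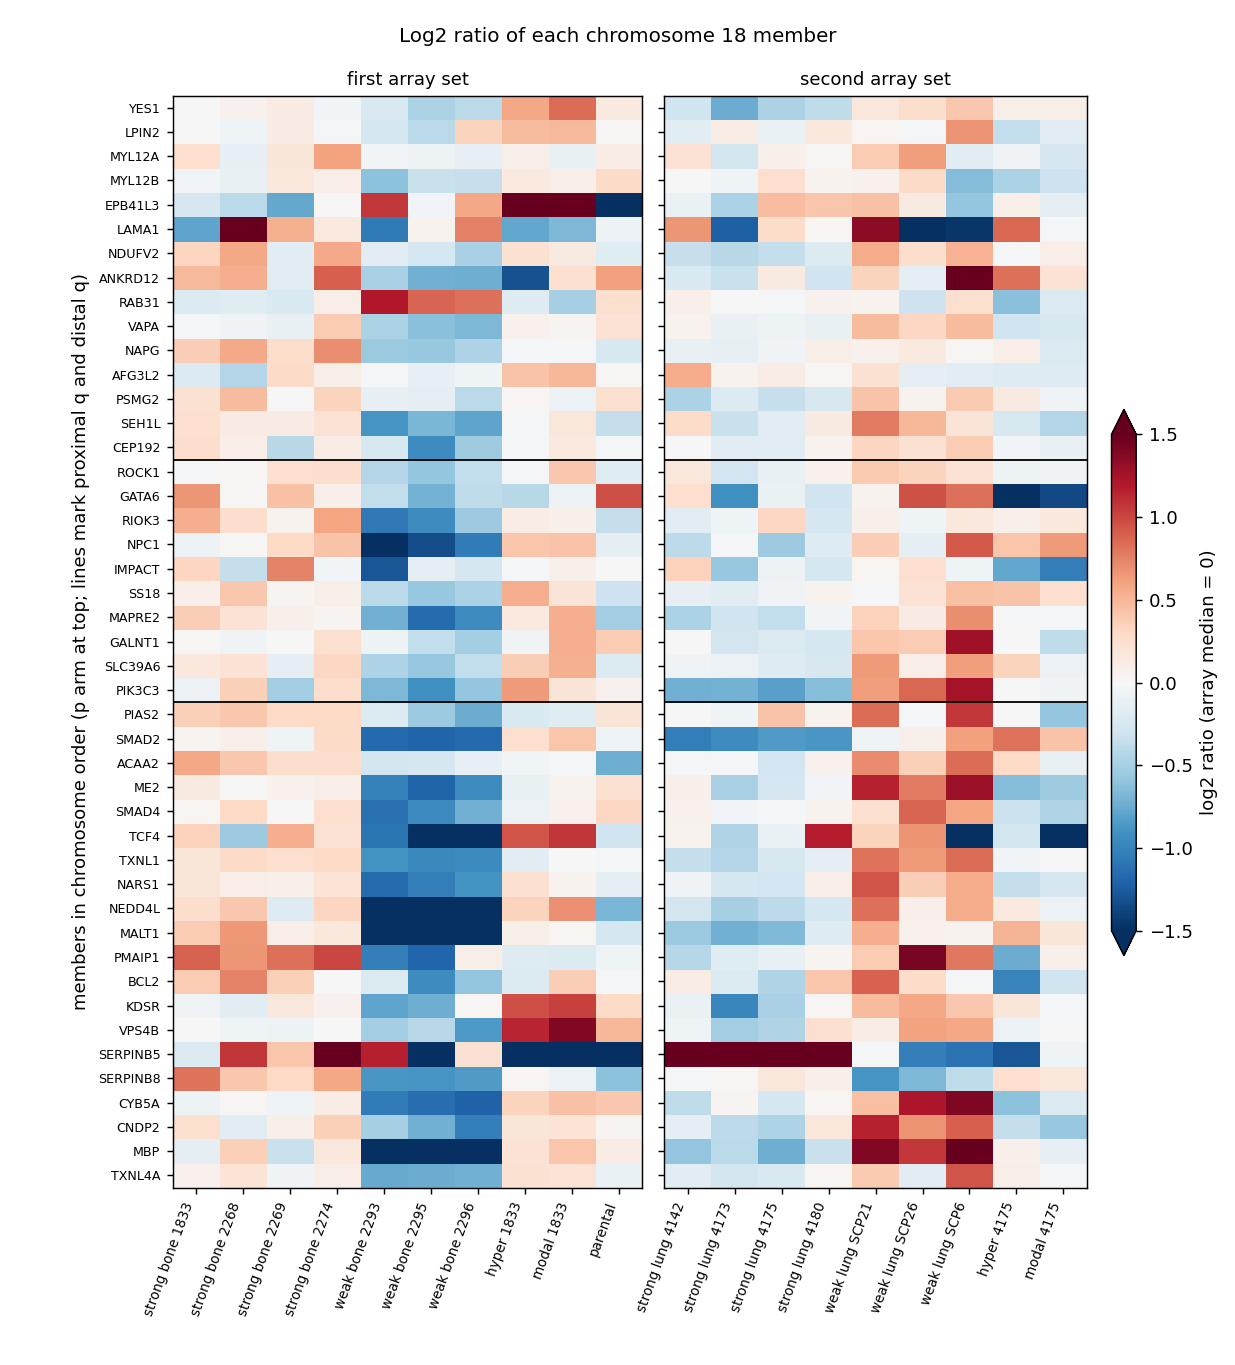
Each cell is the log2 ratio of 1 member (rows, in chromosome order with lines at the start of the proximal and distal q arm) on 1 array (columns), blue for low and red for high, with the colour scale ending at -1.5 and 1.5. The 3 weak bone columns are mostly blue and the 3 weak lung columns mostly red. RAB31 is red in all 3 weak bone columns and SERPINB8 blue in all 3 weak lung columns. SERPINB5 is below 0 in all 3 weak lung columns, at -0.014, -1.11 and -1.02, and above 0 in 2 weak bone columns. EPB41L3, LAMA1 and TCF4 are among those of opposite colour in 1 or 2 columns of a group.

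Separate probe sets of a member did not always agree. Of 24 members with at least 2 kept probe sets, 19 had the same sign in all of them between strong and weak bone lines and 16 between strong and weak lung lines. The bone exceptions were ANKRD12, LPIN2, MBP, RIOK3 and TCF4, and the lung exceptions were BCL2, LPIN2, MAPRE2, MBP, NPC1, PIK3C3, RIOK3 and SS18. The 3 probe sets of MBP gave 1.82 (the one used), 1.06 and -0.030 for bone and -2.09, 0.13 and -0.073 for lung. The 4 probe sets of RIOK3 gave 1.21 (the one used), 1.54, -0.027 and -0.52 for bone. PIK3C3 gave -1.62 (the one used) and 0.23 for lung, the second from a probe set above the 40th percentile on 10 of 19 arrays. The 3 probe sets of SMAD2 agreed in sign, with 1.24, 1.24 and 0.79 for bone and -1.16, -0.80 and -0.62 for lung. Which transcripts a probe set reads was not tested.

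The 96 other tested genes of chromosome 18 are set here beside all 9546 genes. Between strong and weak bone lines 21 were higher (21.9%, against 6.6% of all genes) and 1 was lower (1.04%, against 4.59%). Of the 96, 65 stood above 0, and the median was 0.39. Between strong and weak lung lines 0 were higher (against 3.24% of all genes) and 15 lower (15.6%, against 5.35%). Of the 96, 58 stood below 0, and the median was -0.20. In the hyper-ploid comparison 0 passed, where 0.0105% of all genes did. The 3 with the smallest adjusted p among those higher in bone were CCDC68 at 1.80 (SE 0.23, adjusted p = 3.07e-04), the tubulin gene TUBB6 at 1.15 (SE 0.17, adjusted p = 0.00109) and the chromatin protein gene SMCHD1 at 1.52 (SE 0.24, adjusted p = 0.00158). The lower one was the desmosomal cadherin gene DSG2 at -0.68 (SE 0.20, adjusted p = 0.0407). In lung the lowest adjusted p values belonged to the molybdenum cofactor sulfurase gene MOCOS at -1.77 (SE 0.22, adjusted p = 3.17e-04), the oxysterol-binding protein gene OSBPL1A at -1.37 (SE 0.24, adjusted p = 0.00266) and the ferrochelatase gene FECH at -1.02 (SE 0.18, adjusted p = 0.00291). In limma's difference between organs 29 were positive (30.2%, against 6.79% of all genes) and 2 negative (2.08%, against 4.68%). Among the positive, MOCOS at 3.12 (SE 0.31, adjusted p = 5.54e-05), CCDC68 at 2.79 (SE 0.32, adjusted p = 1.71e-04) and SMCHD1 at 2.83 (SE 0.34, adjusted p = 1.92e-04) came first. The negative ones were ARHGAP28 at -1.89 (adjusted p = 0.0380) and MC4R at -1.25 (adjusted p = 0.0486), both of low signal. On the p arm the other genes had medians of 0.50 for bone and -0.15 for lung, where the members had 0.46 and -0.31. On the proximal q arm they had 0.15 and -0.15, where the members had 0.67 and -0.67. On the distal q arm the other genes had medians of 0.51 for bone and -0.36 for lung, where the members had 1.10 and -0.76. Whether the members and the other genes of a stretch differ was not tested, because the members had been picked with results known.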

How the data were processed

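The authors deposited linear ratios for 22283 probe sets on 19 arrays, per the deposited value table. How they were made, with which scanning, summary and normalisation software and on which genome build, is not given in the sources used here. Per the labels' protocols, total RNA was extracted with a column kit and biotin-labelled by the standard Affymetrix procedure. Read from the values, the first 10 arrays have a median ratio of 1 in 91.6% of probe sets and the other 9 in 0.0224%, so the deposited ratios were treated as 2 sets with separate divisors. Signals were recovered as whole multiples of 0.1 for 99.1% of probe sets (tolerance 0.01 steps), the 193 others were left out, and the log2 divisors of the 2 sets correlated at 0.971. The recovered signals were analysed as linear values, since the design had assumed expression values, and the ratios served the trace and an alternative.

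Signals were scaled to a common median and taken as log2(signal + 16). A probe set was kept above its array's 40th percentile on at least 2 arrays (16228 kept), and the brightest kept probe set stood for a gene. Of all probe sets 19071 had 1 gene symbol, 1043 several and 2169 none, and 19059 matched an identifier in the RefSeq table (GRCh38.p14). Differences were fitted with limma 3.58.1 in R 4.3.3 (lmFit, eBayes), with Benjamini-Hochberg adjustment over 9546 genes and a threshold of 0.05. The 14 strong and weak lines shared 1 fit with 10 residual degrees of freedom. The 4 ploidy arrays were fitted with line of origin as a block, since the labels give a hyper-ploid and a modal-ploid subline of the same line, and 1 residual degree was left. The fits were tested on simulated data. Arrays came singly from each line, so the number of lines limits the precision.

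The trace is the median over members of the log2 deposited ratio minus the array's median over all genes. Alternatives changed the pseudocount (1 or 64), filter, scaling, scale of values, probe set rule, arrays fitted and lines included. Members named with values are those past the threshold, the 4 highest and 4 lowest per comparison, those whose probe sets disagree, and SMAD2, SMAD4, BCL2, ROCK1, GATA6, YES1, MYL12A and MYL12B. Of other chromosome 18 genes, those with the 3 smallest adjusted p values per direction were named where called. The members, lists and rules were chosen with earlier results of these data known. Figures were drawn with matplotlib 3.10.9.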

Additional observations from a re-analysis of the deposited data

Results flagged for a closer look

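In 3 of 98 groups of 4 lines, 1 line stood apart from the other 3 by more than Dixon's critical value for the gap over the range. Chance alone marks about 1 in 20 such groups. CEP192 had a log2 level of 7.33 in the strong bone line 2269, where the other strong bone lines had 7.98 to 8.10. PIAS2 had 8.30 in the strong lung line 4175, where the others had 7.80 to 7.88. SERPINB8 had 8.22 in the same line, where the others had 8.03 to 8.05.

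For 34 members the strong minus weak difference in bone differed from that in lung by limma's test of the difference itself, with adjusted p from 3.60e-05 to 0.0330. Over all 9546 genes 11.5% passed, 6.79% positive and 4.68% negative. Of the 34 calls, 8 were lost in some alternative, as given above. The values below are log2 differences of the 34 members, bone minus lung. On the p arm these were YES1 at 1.19, NDUFV2 at 1.46, ANKRD12 at 1.76, RAB31 at -1.07, VAPA at 1.17, NAPG at 1.13, PSMG2 at 1.13 and SEH1L at 1.51. On the proximal q arm they were ROCK1 at 0.98, GATA6 at 1.62, RIOK3 at 1.35, NPC1 at 2.19, SS18 at 0.95, MAPRE2 at 1.79, GALNT1 at 1.28, SLC39A6 at 1.23 and PIK3C3 at 2.33. On the distal q arm they were PIAS2 at 1.33, SMAD2 at 2.40, ACAA2 at 1.31, ME2 at 2.36, SMAD4 at 1.57, TXNL1 at 2.29, NARS1 at 1.96, NEDD4L at 3.05, MALT1 at 2.95, PMAIP1 at 2.61, BCL2 at 1.25, KDSR at 1.38, VPS4B at 1.22, CYB5A at 2.29, CNDP2 at 2.0, MBP at 3.90 and TXNL4A at 1.41.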

How the results depend on the processing

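No called member changed sign in any alternative. Of the member calls, 16 of 25 in bone, 7 of 17 in lung and 26 of 34 in the difference between organs held in every alternative run. Between strong and weak lung lines the number of higher members was 2 with the deposited log2 ratio, the mean of probe sets, a pseudocount of 1, quantile normalisation and trimmed mean scaling, and 0 among members above the 40th percentile on all 19 arrays, a restriction chosen after seeing the data. The number of lower members was 9 with the 7 lung arrays alone. The difference between organs had 0 negative members with the mean of probe sets. For the ploidy comparison the median member difference was -0.0039 with the mean of probe sets, -0.010 with quantile normalisation and 0.00071 with trimmed mean scaling, and with no replicate block 0 members passed and the median was -0.035. With all probe sets of the members the bone trace gap was 0.66 over members, 0.22 on the p arm and 1.0 on the distal q arm, and the lung gap was -0.39 on the proximal q arm and -0.52 on the distal q arm. Against the parental array, chosen after seeing the data, the p arm gap in bone was 0.30. The cause of these shifts was not tested. Calls that other settings ended, beside those named with single genes, were in lung MAPRE2, GALNT1, ACAA2, NARS1, NEDD4L and KDSR with the 7 lung arrays alone, MAPRE2, ACAA2, NEDD4L and PMAIP1 with the mean of probe sets, MAPRE2 with no filter, and PMAIP1 and KDSR with quantile and trimmed mean scaling. In the difference between organs they were ANKRD12, SS18 and BCL2 with the mean of probe sets and BCL2 with trimmed mean scaling. In bone they were VAPA, SS18 and ACAA2 with the 7 bone arrays alone, SS18, ACAA2, TCF4 and TXNL4A with the mean of probe sets, ACAA2, TCF4, BCL2 and TXNL4A with no filter, ROCK1 with quantile normalisation and BCL2 with trimmed mean scaling.

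Leaving out single lines gave 16 to 30 higher members in bone, with 1 lower in each run, and 1 to 2 higher and 9 to 20 lower in lung, with a median of -0.81 to -0.50. In the difference between organs it gave 28 to 35 positive and 0 to 2 negative members, with 0 without 2293 and 2 without 2274. In the ploidy comparison, leaving out a line of origin gave medians of -0.024 to 0.0072 and 0 calls. Dim members such as TCF4, EPB41L3, LAMA1 and SERPINB5 are limited by signal near background, and with 2 pairs the ploidy comparison can show large differences only.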
